A study of Mus musculus with 20 samples.

Results

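The 10 genes described here are the BMP and TGF-beta signalling genes that endothelium is known for: the ligands Bmp4 and Bmp6, the receptors Bmpr2, Acvrl1 (ALK1) and Eng (endoglin), the inhibitory SMADs Smad6 and Smad7, and the targets Id1, Id2 and Id3. Each was taken as the probe set whose platform annotation names that gene alone, with no use of its measured values. All 10 of 10 were found and passed the filter on low signal, among 14178 genes tested. The study sorted CD31+CD45-Ter119- endothelial cells from mouse ears and measured their RNA on expression arrays. The question set by the design is how endothelium with a constitutively active Notch1 intracellular domain (NICD) differs from control endothelium in contact hypersensitivity, a T cell-driven skin inflammation raised by the hapten DNFB. There were 4 groups: 4 arrays from DNFB-treated ears of NICD1-EC-OE mice, 4 arrays from vehicle-treated ears of NICD1-EC-OE mice, 6 arrays from DNFB-treated ears of control mice and 6 arrays from vehicle-treated ears of control mice. NICD1-EC-OE mice carry Pdgfb-CreERT2; R26-NICD in the genotype label, while the growth protocol names CDH5-iCre as the driver, so the Cre line is not settled by the labels. As the treatment protocol is given for every array, all groups, controls included, had 5 daily tamoxifen injections, and ears were taken 24 h after the challenge on day 5. The labels give the control genotype only as control, do not name the vehicle or the age of the mice, and do not say that replicates are separate mice, so a p-value measures the spread between these arrays, which may in part be technical.

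Values are log2 signals as deposited. The arrays of NICD1-EC-OE mice lay lower as a whole, with array medians of 3.52 to 3.62 in NICD1-EC-OE mice against 3.87 to 3.98 in control mice, and their lowest values lay higher, at 1.18 to 1.30 in NICD1-EC-OE mice against 0.412 to 0.590 in control mice. Over the 14886 probe sets tested, the median genotype difference was -0.27 in DNFB ears and -0.28 in vehicle ears as deposited, and 0.025 and 0.024 once each array was centred on its own median. Genotype differences below are therefore given on the centred values, with the deposited difference beside them, and DNFB differences, which lie within a genotype, on the deposited values. The inactive X marker Xist lay at 8.47 to 9.07 in NICD1-EC-OE arrays and 2.27 to 3.16 in control arrays, and the Y-linked Eif2s3y at 2.11 to 2.79 in NICD1-EC-OE arrays and 6.08 to 7.12 in control arrays; both were named after their values were seen. Sex, array scale and genotype cannot be told apart in any genotype comparison. NICD1-EC-OE vehicle replicate 4 is vehicle-treated by its title and DNFB-treated by its description. Its title was followed here, and its score on the first principal component, -44.3, lay among those of the vehicle arrays. Without it, none of the 10 genes changed side of the threshold in any comparison, and 6, 7, 4 and 2 of the 10 were called, as with it. The Notch1 probe set did not differ by genotype in DNFB ears at the threshold, with a centred difference of 0.30 (adjusted p = 0.0543) and a deposited difference near 0; whether it covers the transgene's part of Notch1 is not given in the sources used here, so it does not check the label. CD31 (Pecam1), the marker used for the sort, averaged 11.48 ± 0.07 in DNFB ears and 11.72 ± 0.05 in vehicle ears of NICD1-EC-OE mice, and 11.51 ± 0.10 in DNFB ears and 11.72 ± 0.06 in vehicle ears of control mice (SD, n = 4, 4, 6 and 6 arrays).

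BMPs bind paired type I and type II serine-threonine kinase receptors on the cell surface. In endothelium the type II receptor BMPR2, the type I receptor ALK1 and the co-receptor endoglin form a complex for circulating BMPs that keeps vessels quiescent, and loss of function in the human genes causes pulmonary arterial hypertension (BMPR2) or hereditary haemorrhagic telangiectasia (ENG and ACVRL1). Activated receptors phosphorylate SMAD1, SMAD5 and SMAD9, which enter the nucleus with SMAD4 and drive the Id genes, encoding inhibitors of basic helix-loop-helix transcription factors, and also Smad6 and Smad7, which block the receptors in a negative loop. TGF-beta and activins signal through SMAD2 and SMAD3 in the same way, and Notch signalling is known to converge with the BMP pathway on shared endothelial targets.

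Because these genes lie on both sides of SMAD signalling, the start regions of Bmp4, Smad6, Id2 and Id3 are shown: the ligand among the 10 genes that rose under DNFB, the inhibitor that rose in 1 genotype, and a pair of targets. Each runs 5′ to 3′ on the gene's own strand, from 250 bases before to 20 bases after the RefSeq start in GRCm38.p6, with motif matches in capitals. They lie at chr14:46390650-46390919 (Bmp4, minus strand), chr9:64022040-64022309 (Smad6, minus strand), chr12:25096073-25096342 (Id2, minus strand) and chr4:136143572-136143841 (Id3, plus strand).
Bmp4: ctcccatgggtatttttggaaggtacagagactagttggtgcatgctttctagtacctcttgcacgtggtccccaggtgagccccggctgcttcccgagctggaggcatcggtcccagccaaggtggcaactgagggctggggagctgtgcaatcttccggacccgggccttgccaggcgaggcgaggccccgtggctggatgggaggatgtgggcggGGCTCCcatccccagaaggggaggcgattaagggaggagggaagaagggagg
Smad6: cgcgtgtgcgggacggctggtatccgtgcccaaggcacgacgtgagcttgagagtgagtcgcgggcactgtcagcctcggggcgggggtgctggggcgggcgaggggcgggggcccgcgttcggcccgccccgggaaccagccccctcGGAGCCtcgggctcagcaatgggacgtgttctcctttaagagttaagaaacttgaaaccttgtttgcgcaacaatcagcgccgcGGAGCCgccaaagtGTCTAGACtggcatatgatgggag
Id2: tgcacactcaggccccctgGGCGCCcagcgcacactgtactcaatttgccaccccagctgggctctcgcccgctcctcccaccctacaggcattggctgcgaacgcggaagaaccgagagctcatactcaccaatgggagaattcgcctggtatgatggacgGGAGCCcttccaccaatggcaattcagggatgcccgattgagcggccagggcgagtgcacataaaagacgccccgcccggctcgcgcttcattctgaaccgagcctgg
Id3: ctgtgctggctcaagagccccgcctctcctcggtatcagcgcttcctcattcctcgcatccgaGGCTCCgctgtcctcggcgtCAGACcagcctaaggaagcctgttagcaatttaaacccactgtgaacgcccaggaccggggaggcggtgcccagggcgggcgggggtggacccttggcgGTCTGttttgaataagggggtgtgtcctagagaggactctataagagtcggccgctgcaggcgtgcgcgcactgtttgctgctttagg
The motifs were searched on both strands, so that a match on the opposite strand appears above as its reverse complement. GGCGCC, which is its own reverse complement, is a GC-rich element bound by SMAD1 and SMAD5. The related form GGAGCC was searched as well. CAGAC is the SMAD box. The palindrome GTCTAGAC is the element bound by SMAD3 and SMAD4, and it holds none of the other motifs. Among 32851 promoter windows of the same length, 10.4% held GGCGCC, 27.8% held GGAGCC, 45.4% held CAGAC and 0.183%, 60 windows, held GTCTAGAC.
The Smad6 window held GTCTAGAC from position -4 to 3 around the start and GGAGCC at -102 and -18. The Id2 window held GGCGCC at -231 and GGAGCC at -88, the Id3 window GGAGCC on the opposite strand at -187 with CAGAC at -167 and, on the opposite strand, -68, and the Bmp4 window GGAGCC on the opposite strand at -32. Of the 10 genes, 7 had an entry used here. The windows of Eng (CAGAC at -214 and, on the opposite strand, -127), Bmp6 (CAGAC at -119) and Bmpr2 (GGCGCC at -105) also held matches. All of these are matches of letters and no measure of binding.

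**Figure D1:**
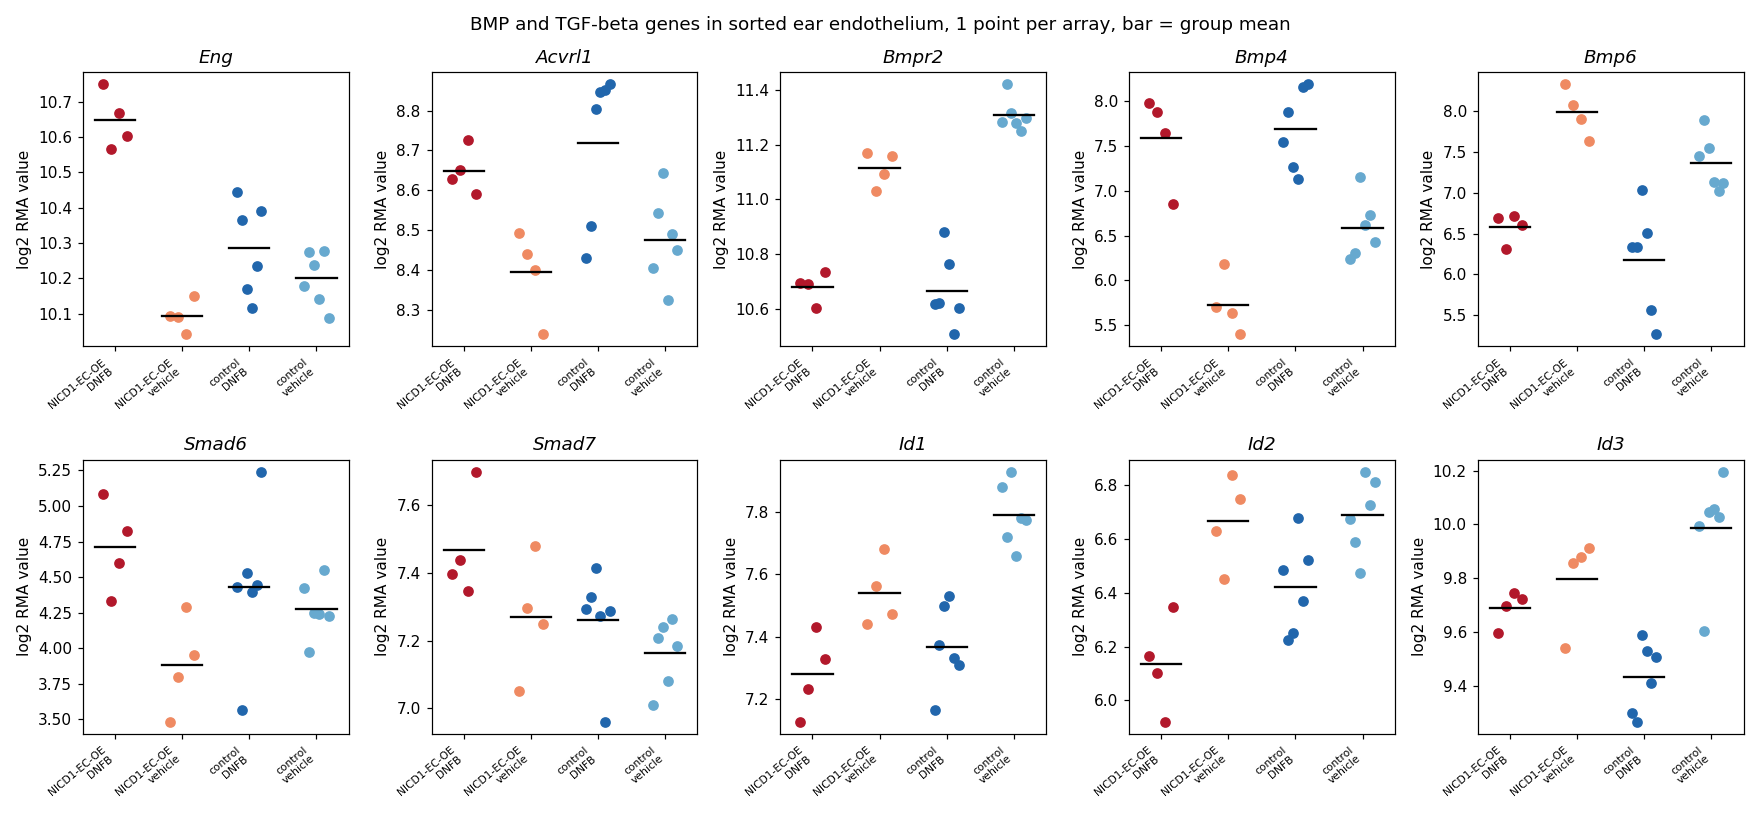
Log2 signal as deposited (y axis, own range in each panel) of the 10 genes in each of the 20 arrays, 1 point per array, with the group mean as a bar. Groups run from left to right as DNFB and vehicle ears of NICD1-EC-OE mice and DNFB and vehicle ears of control mice. Bmp4 is high and Bmp6 and Bmpr2 are low in DNFB ears of both genotypes, and Eng is at 10.57 or more in all 4 DNFB arrays of NICD1-EC-OE mice and in no other array.

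DNFB challenge was accompanied by opposite changes of the BMP ligands and by a lower type II receptor in both genotypes. Bmp4 rose 3.63-fold in NICD1-EC-OE mice and 2.17-fold in control mice, while Bmp6 fell 2.65-fold in NICD1-EC-OE mice and 2.27-fold in control mice, and Bmpr2 fell 1.35-fold in NICD1-EC-OE mice and 1.56-fold in control mice. Of the 10 genes, 6 passed the threshold in NICD1-EC-OE mice, with 3 higher and 3 lower, where 38.1% of all probe sets tested were called, 20% higher and 18.1% lower. In control mice 7 passed, with 2 higher and 5 lower, where 47.2% of all probe sets tested were called, 23.7% higher and 23.6% lower. The median difference of the 10 genes was 0.046 in NICD1-EC-OE mice and -0.089 in control mice, and that of all probe sets was 0.0067 and -0.0012. The test throughout is limma's moderated test over all 20 arrays with Benjamini-Hochberg adjustment over the 14886 probe sets and a threshold of 0.05, and differences are given with their standard error.

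Bmp4, a ligand that patterns mesoderm in development, had 7.98, 7.88, 7.64 and 6.86 in DNFB ears of NICD1-EC-OE mice, against 5.70, 6.18, 5.63 and 5.40 in their vehicle ears. Its control values ran from 7.13 through a median of 7.71 to 8.19 in DNFB ears, against 6.23 through 6.53 to 7.16 in vehicle ears. All DNFB arrays of NICD1-EC-OE mice lay above all their vehicle arrays, and in control mice the highest vehicle array only just passed the lowest DNFB array. The difference was 1.86 ± 0.27 in NICD1-EC-OE mice (adjusted p = 1.47e-05) and 1.12 ± 0.22 in control mice (adjusted p = 2.87e-04). Bmp6, the ligand best known for setting hepcidin in the liver, where endothelium makes it, had 6.69, 6.31, 6.71 and 6.61 in DNFB ears of NICD1-EC-OE mice, against 8.33, 8.08, 7.90 and 7.64 in vehicle ears. Bmp6 in control mice ran from 5.27 through 6.34 to 7.03 in DNFB ears, against 7.03 through 7.29 to 7.89 in vehicle ears. The NICD1-EC-OE groups did not overlap, and the control groups met at the highest DNFB and the lowest vehicle array. The differences were -1.41 ± 0.28 in NICD1-EC-OE mice (adjusted p = 4.92e-04) and -1.18 ± 0.23 in control mice (adjusted p = 2.60e-04).

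Among the receptors, Bmpr2, the type II receptor for BMPs, fell in both genotypes. Its values were 10.69, 10.69, 10.60 and 10.74 in DNFB ears of NICD1-EC-OE mice, against 11.17, 11.03, 11.09 and 11.16 in vehicle ears. In control mice they ran from 10.51 through 10.62 to 10.88 in DNFB ears, against 11.25 through 11.29 to 11.42 in vehicle ears. No DNFB array reached a vehicle array in either genotype. The differences were -0.43 ± 0.09 (adjusted p = 8.29e-04) in NICD1-EC-OE mice and -0.64 ± 0.08 (adjusted p = 6.15e-07) in control mice, and a second Bmpr2 probe set, which the annotation shares with Gm20272, gave -0.53 and -0.75.

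Eng, the co-receptor that raises ALK1 signalling, rose under DNFB in NICD1-EC-OE mice. It had 10.75, 10.57, 10.67 and 10.60 in DNFB ears of NICD1-EC-OE mice, against 10.09, 10.09, 10.04 and 10.15 in vehicle ears, 2 groups that did not overlap. Eng in control mice ran from 10.12 through 10.30 to 10.45 in DNFB ears, against 10.09 through 10.21 to 10.28 in vehicle ears, and the groups overlapped. The difference was 0.55 ± 0.09 in NICD1-EC-OE mice (1.47-fold, adjusted p = 9.07e-05) and 0.087 ± 0.08 in control mice (adjusted p = 0.374), where the 95% interval ran from -0.073 to 0.25. Acvrl1, the type I receptor for BMP9 and BMP10, had 8.63, 8.65, 8.73 and 8.59 in DNFB ears of NICD1-EC-OE mice, against 8.49, 8.44, 8.40 and 8.24 in vehicle ears. Acvrl1 in control mice ran from 8.43 through 8.83 to 8.87 in DNFB ears, against 8.33 through 8.47 to 8.64 in vehicle ears. The DNFB arrays lay above all vehicle arrays in NICD1-EC-OE mice, and 2 of 6 control DNFB arrays lay inside the vehicle range. The differences were close, 0.25 ± 0.11 (adjusted p = 0.083) in NICD1-EC-OE mice and 0.24 ± 0.09 (adjusted p = 0.0369) in control mice. The control call was lost in 8 of 20 fits that left out 1 array and under other scalings (adjusted p = 0.152 after quantile normalization), and array weights brought the NICD1-EC-OE difference to adjusted p = 0.0469.

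Of the inhibitory SMADs, Smad6, the inhibitor that acts mainly on BMP receptors, rose in NICD1-EC-OE mice. Its values were 5.08, 4.33, 4.60 and 4.82 in DNFB ears of NICD1-EC-OE mice, against 3.48, 3.80, 4.29 and 3.95 in vehicle ears. In control mice they ran from 3.57 through 4.44 to 5.24 in DNFB ears, against 3.97 through 4.24 to 4.55 in vehicle ears. The NICD1-EC-OE groups did not overlap, and the control DNFB arrays spread on both sides of the vehicle arrays. The difference was 0.83 ± 0.25 in NICD1-EC-OE mice (1.78-fold, adjusted p = 0.0119) and 0.16 ± 0.20 in control mice (adjusted p = 0.552). Smad6 lies near the low end of the signal: NICD1-EC-OE vehicle replicate 1, at 3.48, and control DNFB replicate 2, at 3.57, were under their arrays' medians over all probe sets, 3.57 and 3.92. Smad7, the inhibitor of both BMP and TGF-beta receptors, had 7.39, 7.44, 7.35 and 7.70 in DNFB ears of NICD1-EC-OE mice, against 7.05, 7.30, 7.48 and 7.25 in vehicle ears. Smad7 in control mice ran from 6.96 through 7.29 to 7.42 in DNFB ears, against 7.01 through 7.20 to 7.26 in vehicle ears. The groups overlapped in both genotypes, with differences of 0.20 ± 0.12 (adjusted p = 0.199) and 0.095 ± 0.10 (adjusted p = 0.44).

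The mean of each Id target was lower in DNFB ears of both genotypes, with 1 of 3 called in NICD1-EC-OE mice and all 3 in control mice. Id1, a direct BMP target in endothelium, had 7.13, 7.23, 7.43 and 7.33 in DNFB ears of NICD1-EC-OE mice, against 7.44, 7.56, 7.68 and 7.47 in vehicle ears. In control mice it ran from 7.16 through 7.35 to 7.53 in DNFB ears, against 7.66 through 7.78 to 7.93 in vehicle ears. The DNFB and vehicle groups did not overlap in either genotype. Id1 fell by 0.42 ± 0.09 on the log2 scale in control mice (adjusted p = 3.73e-04), and its difference in NICD1-EC-OE mice was -0.26 ± 0.10 (adjusted p = 0.0567), which ran from 0.0194 to 0.134 over the 12 other settings tried and was past the threshold in 6 of them.

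Id2, which also restrains differentiation in many cell types, had 6.17, 6.10, 5.92 and 6.35 in DNFB ears of NICD1-EC-OE mice, against 6.63, 6.45, 6.84 and 6.75 in vehicle ears. In control mice it ran from 6.23 through 6.43 to 6.68 in DNFB ears, against 6.47 through 6.70 to 6.85 in vehicle ears. The NICD1-EC-OE groups were apart and the control groups overlapped. Id2 fell by 0.53 ± 0.13 in NICD1-EC-OE mice (adjusted p = 0.00211) and by 0.27 ± 0.10 in control mice (adjusted p = 0.0399), and the control call was lost in 7 of 20 fits that left out 1 array and with centred arrays (adjusted p = 0.0809). Id3, a BMP target often read beside Id1 in endothelium, had 9.60, 9.70, 9.74 and 9.72 in DNFB ears of NICD1-EC-OE mice, against 9.54, 9.86, 9.88 and 9.91 in vehicle ears. In control mice it ran from 9.27 through 9.46 to 9.59 in DNFB ears, against 9.61 through 10.04 to 10.19 in vehicle ears. NICD1-EC-OE vehicle replicate 1 lay below all 4 DNFB arrays of its genotype, and the control groups did not overlap. The difference was -0.11 ± 0.12 in NICD1-EC-OE mice (adjusted p = 0.54), with an interval from -0.36 to 0.15, and -0.19 (adjusted p = 0.257) without that vehicle replicate. It was -0.56 ± 0.10 in control mice (1.47-fold lower, adjusted p = 1.12e-04).

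**Figure D2:**
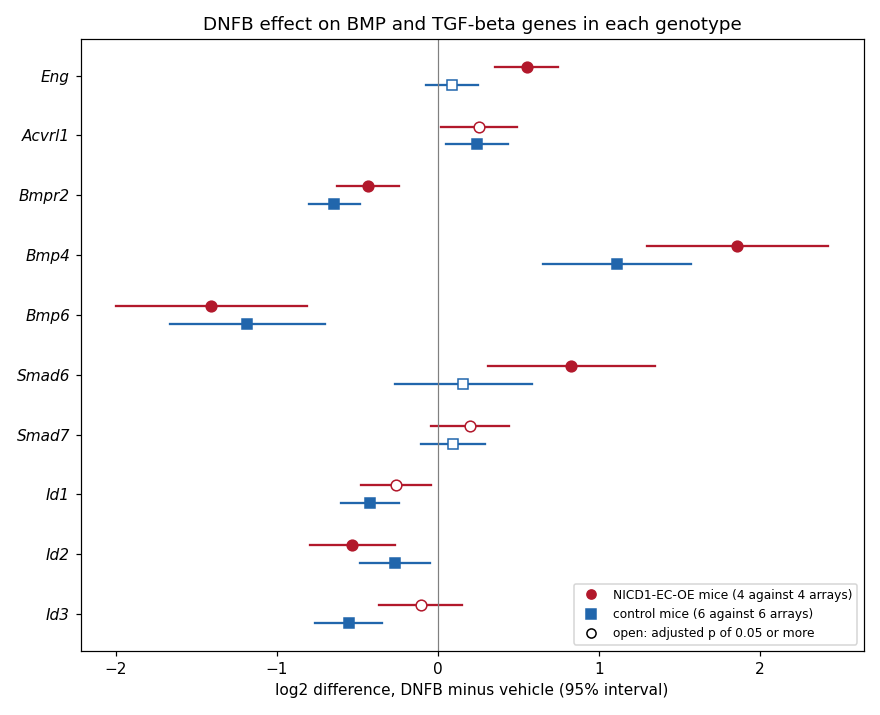
Log2 difference of DNFB minus vehicle ears (x axis) with its 95% interval for the 10 genes, in NICD1-EC-OE mice (circles, 4 against 4 arrays) and control mice (squares, 6 against 6 arrays). Filled symbols have an adjusted p under 0.05. The intervals of the 2 genotypes overlap for every gene but Eng, at 0.55 in NICD1-EC-OE mice and 0.087 in control mice.

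Whether the DNFB response depended on genotype was tested directly, and none of the 10 genes passed the threshold, where 0.0134% of all probe sets, 2 of 14886, were called and 1580 had an unadjusted p under 0.05. The largest relative to its error was Eng, whose DNFB difference was 0.47 ± 0.12 higher in NICD1-EC-OE mice than in control mice (unadjusted p = 0.00108, adjusted p = 0.165). Over the 11 other settings its adjusted p ran from 0.0442 to 0.299, and only trended and robust variances brought it past the threshold. Id3 differed by 0.45 ± 0.16 (adjusted p = 0.32), Bmp4 by 0.75 ± 0.35 (adjusted p = 0.459) and Smad6 by 0.67 ± 0.32 (adjusted p = 0.471). The intervals leave room for sizeable differences, from 0.018 to 1.47 for Bmp4, while that of Acvrl1 ran from -0.29 to 0.32. Calls made in 1 genotype alone, for Eng, Smad6, Acvrl1, Id1 and Id3, are thus not shown to differ between the genotypes.

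Markers of the sorted and other cells moved with DNFB in the same arrays. Of 13 pan-endothelial markers tested, 1 rose and 7 fell in NICD1-EC-OE mice and 0 rose and 11 fell in control mice, with median differences of -0.32 and -0.63. Their summed linear signal was 15011 to 17366 in DNFB ears and 18438 to 20621 in vehicle ears of NICD1-EC-OE mice, and 12950 to 16099 in DNFB ears and 19308 to 22455 in vehicle ears of control mice. Pericyte and smooth muscle markers fell with them, 8 of 11 in NICD1-EC-OE mice and 10 of 11 in control mice, with the pericyte gene Rgs5 at -1.56 and -0.81. All 6 neutrophil markers tested rose in both genotypes, S100a8 by 4.37 in NICD1-EC-OE mice and 4.99 in control mice, and 5 of 8 macrophage markers rose in both. Ptprc, which encodes the CD45 that the sort selected against, averaged 4.86 ± 0.67 in DNFB ears and 3.30 ± 0.25 in vehicle ears of NICD1-EC-OE mice, and 5.00 ± 0.62 in DNFB ears and 3.79 ± 0.26 in vehicle ears of control mice. Platelet markers rose for 4 of 5 in NICD1-EC-OE mice and 5 of 5 in control mice, keratinocyte markers rose for 3 and fell for 1 of 10 in NICD1-EC-OE mice and rose for 4 and fell for 2 of 10 in control mice, and fibroblast markers rose for 2 and fell for 2 of 8 in NICD1-EC-OE mice and rose for 3 of 8 in control mice. The summed signal was 3781 to 4852 in DNFB ears and 6747 to 8269 in vehicle ears of NICD1-EC-OE mice for the pericyte list, and 461 to 575 in DNFB ears and 64.0 to 77.6 in vehicle ears for the neutrophil list. In control mice it was 4389 to 7285 in DNFB ears and 7827 to 9524 in vehicle ears for the pericyte list, and 386 to 1852 in DNFB ears and 60.1 to 83.5 in vehicle ears for the neutrophil list. These array values have no true 0, so no marker can be called absent. The part of these cells in the changes of the 10 genes was not tested, and in sorted pools fewer cells of a type and less RNA per cell cannot be told apart.

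Set against control endothelium, NICD1-EC-OE endothelium of DNFB ears had more Eng (1.58-fold), Id3 (1.47-fold), Smad7 (1.42-fold) and Bmpr2 (1.24-fold) on centred values, and none of the 10 genes fell, where 27.3% of all probe sets tested were called, 16.5% higher and 10.8% lower. In vehicle ears Bmp6 (1.91-fold) and Smad7 (1.33-fold) rose and none fell, where 18.7% of all probe sets tested were called, 11.3% higher and 7.4% lower. As deposited, 1 of the 10 genes, Eng, was higher and 0 lower in DNFB ears, and 0 were higher and 2, Bmp4 and Id1, lower in vehicle ears. The median difference of the 10 genes was 0.41 in DNFB ears and 0.16 in vehicle ears, against 0.025 and 0.024 for all probe sets, and as deposited it was 0.11 and -0.15, against -0.27 and -0.28 for all probe sets. The 13 pan-endothelial markers had similar centred medians, 0.37 in DNFB ears and 0.18 in vehicle ears, so the shift was not particular to these 10 genes. These comparisons use the same arrays as the DNFB comparisons. Their calls depended on how the arrays were brought to 1 scale: of probe sets called in DNFB ears, 2455 were higher and 1605 lower with centred arrays, 811 higher and 5225 lower as deposited, 1778 higher and 1775 lower after quantile normalization, and 3074 higher and 1209 lower when centred on all probe sets. In vehicle ears the split was 1677 higher and 1101 lower with centred arrays, 428 and 4915 as deposited, and 1020 and 1392 after quantile normalization.

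Eng was the gene among the 10 that passed in DNFB ears under all 5 scalings, with a difference of 0.36 to 0.73 and an adjusted p of at most 0.00486. Its centred values were 5.03 to 5.18 in NICD1-EC-OE mice and 4.30 to 4.61 in control mice, with no overlap. On centred values the difference was 0.66 ± 0.09 (adjusted p = 3.04e-05), and as deposited it was 0.36 ± 0.09 (adjusted p = 0.00291). In vehicle ears the centred difference was 0.20 ± 0.09 (adjusted p = 0.119) and turned to -0.11 as deposited. Over the 4 groups Eng was highest in DNFB ears of NICD1-EC-OE mice at 5.11 ± 0.07 above the array median, clear of all other groups, followed by 4.53 ± 0.05 in their vehicle ears, 4.46 ± 0.14 in control DNFB ears and 4.33 ± 0.09 in control vehicle ears, of which each overlapped its neighbour.

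Smad7 was higher in NICD1-EC-OE mice in both ear types on centred values, by 0.51 ± 0.12 in DNFB ears (adjusted p = 0.00456) and 0.41 ± 0.12 in vehicle ears (adjusted p = 0.0237). Centred values were 1.82 to 2.18 in NICD1-EC-OE mice and 1.04 to 1.66 in control mice in DNFB ears, and 1.43 to 1.98 in NICD1-EC-OE mice and 1.19 to 1.39 in control mice in vehicle ears, without overlap in either. As deposited the genotypes overlapped in both ear types. DNFB ears then had 7.35 to 7.70 in NICD1-EC-OE mice and 6.96 to 7.42 in control mice, and vehicle ears 7.05 to 7.48 and 7.01 to 7.26. The DNFB ear call held under 4 of 5 scalings and was lost as deposited (0.21, adjusted p = 0.124). The vehicle ear call held under 2 of 5 scalings, was lost as deposited (0.10, adjusted p = 0.462) and was lost without NICD1-EC-OE vehicle replicate 2 (adjusted p = 0.0568) or 3 (adjusted p = 0.0971). The other inhibitor, Smad6, differed by 0.57 ± 0.23 in DNFB ears (adjusted p = 0.0668), past the threshold under 3 of 5 scalings, and by -0.088 ± 0.23 in vehicle ears (adjusted p = 0.826), where cyclic loess turned it to 0.022.

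Bmp6 was higher in NICD1-EC-OE vehicle ears by 0.93 ± 0.27 (adjusted p = 0.0217), with centred values of 2.07 to 2.71 in NICD1-EC-OE mice and 1.15 to 2.06 in control mice. It was higher under all 5 scalings and called under 4, and as deposited the difference was 0.63 (adjusted p = 0.0648). The vehicle groups overlapped as deposited, at 7.64 to 8.33 in NICD1-EC-OE mice and 7.03 to 7.89 in control mice. Without NICD1-EC-OE vehicle replicate 1 or 2 its adjusted p was 0.071 or 0.0552. In DNFB ears Bmp6 differed by 0.70 ± 0.27 (adjusted p = 0.0608), with the control values, -0.58 to 1.27, spread around the NICD1-EC-OE values, 0.77 to 1.20. This difference passed under 1 of 5 scalings, centring on all probe sets (adjusted p = 0.0261). It also passed with array weights (adjusted p = 0.0342) and without control DNFB replicate 3 (adjusted p = 0.0121). Bmp4 showed no call, with a centred difference of 0.19 ± 0.23 in DNFB ears (adjusted p = 0.567; -0.10 as deposited) and -0.54 ± 0.23 in vehicle ears (adjusted p = 0.11). As deposited, the vehicle ear difference of Bmp4 was -0.85 (adjusted p = 0.0118), the only scaling of 5 that called it. Over the 4 groups, on centred values, Bmp4 ran from 2.06 ± 0.49 in DNFB ears of NICD1-EC-OE mice and 1.86 ± 0.42 in control DNFB ears, which overlapped, to 0.71 ± 0.30 in control vehicle ears and 0.17 ± 0.33 in NICD1-EC-OE vehicle ears, which overlapped as well, and on that scale no vehicle array reached a DNFB array.

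Id3 was higher in NICD1-EC-OE mice in DNFB ears by 0.55 ± 0.12 on centred values (adjusted p = 0.00186), with 4.03 to 4.24 in NICD1-EC-OE mice and 3.47 to 3.83 in control mice. The sign held under all 5 scalings and the call under 2, with 0.26 as deposited (adjusted p = 0.072). In vehicle ears Id3 differed by 0.11 ± 0.12 (adjusted p = 0.541), and by -0.19 as deposited. Id1 and Id2 gave no call on centred values. Id1 differed by 0.21 in DNFB ears and 0.055 in vehicle ears (adjusted p = 0.158 and 0.765), and as deposited by -0.089 and -0.25, the second with an adjusted p of 0.0469. Centring on all probe sets gave 0.28 for Id1 in DNFB ears (adjusted p = 0.0332), the only scaling of 5 that called it there. Id2 differed by 0.0090 in DNFB ears and 0.28 in vehicle ears (adjusted p = 0.962 and 0.1), and as deposited by -0.29 and -0.022.

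Bmpr2 passed in DNFB ears on centred values (0.31 ± 0.10, adjusted p = 0.0198), with 5.10 to 5.22 in NICD1-EC-OE mice and 4.58 to 5.13 in control mice. The call held under 2 of 5 scalings: the difference was 0.015 as deposited (adjusted p = 0.902) and -0.011 after cyclic loess, and without NICD1-EC-OE DNFB replicate 4 the adjusted p was 0.0534. In vehicle ears it was 0.11 ± 0.10 (adjusted p = 0.46), and -0.20 as deposited. The probe set shared with Gm20272, added after the data were seen, gave 0.67 in DNFB ears and 0.46 in vehicle ears (adjusted p = 1.08e-04 and 0.0038), so the probe sets of Bmpr2 disagreed in vehicle ears. Acvrl1 differed by 0.23 ± 0.10 in DNFB ears and 0.22 ± 0.10 in vehicle ears (adjusted p = 0.103 and 0.137), and by -0.068 and -0.082 as deposited. Centring on all probe sets gave 0.30 for Acvrl1 in DNFB ears (adjusted p = 0.0484), the only scaling of 5 that called it there.

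On centred values the order of the 4 groups differed from gene to gene. Bmpr2 was highest in vehicle ears, at 5.55 in NICD1-EC-OE mice and 5.44 in control mice, which overlapped, and lower without overlap in DNFB ears, at 5.15 in NICD1-EC-OE mice and 4.83 in control mice, which overlapped with each other. Bmp6 was highest in NICD1-EC-OE vehicle ears at 2.43, clear of control vehicle ears at 1.49, NICD1-EC-OE DNFB ears at 1.05 and control DNFB ears at 0.35, each of which overlapped its neighbour. Acvrl1 was highest in NICD1-EC-OE DNFB ears at 3.12, just clear of control DNFB ears at 2.89, followed by NICD1-EC-OE vehicle ears at 2.83 and control vehicle ears at 2.61, again with overlap between neighbours. Smad6 and Smad7 were both highest in NICD1-EC-OE DNFB ears, at -0.82 and 1.94, and Id1, Id2 and Id3 in NICD1-EC-OE vehicle ears, at 1.98, 1.11 and 4.24. For these 5 genes every group overlapped the next in order. As deposited, control vehicle ears had the highest mean of Bmpr2 (11.31), Id1 (7.79), Id2 (6.69) and Id3 (9.99). NICD1-EC-OE vehicle ears had 11.11, 7.54, 6.67 and 9.80. Control DNFB ears were then highest for Acvrl1 (8.72, against 8.65 in NICD1-EC-OE DNFB ears) and Bmp4 (7.69, against 7.59). Eng, Bmp6, Smad6 and Smad7 kept their highest group.

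**Figure D3:**
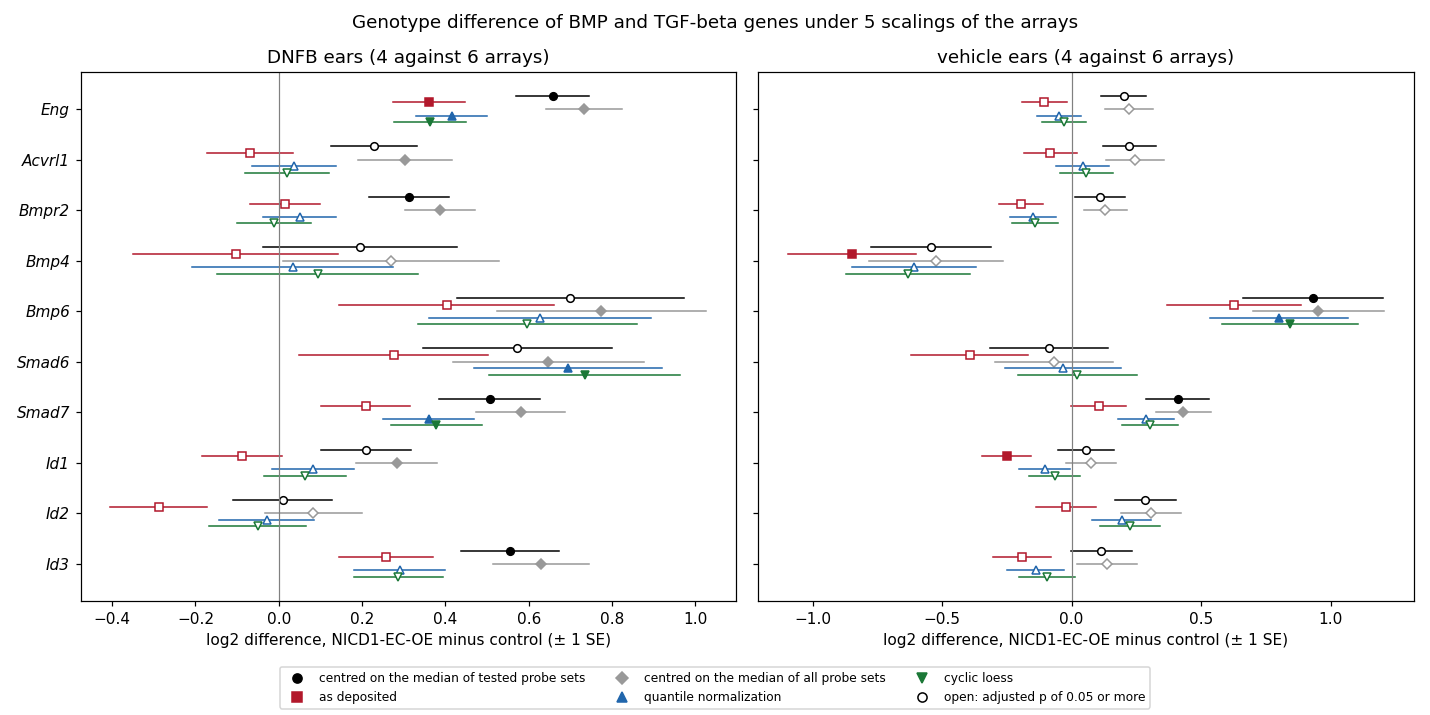
Log2 difference of NICD1-EC-OE minus control (x axis, ± 1 standard error) for the 10 genes in DNFB ears (left) and vehicle ears (right), each under 5 ways of bringing the arrays to 1 scale. Filled symbols have an adjusted p under 0.05. Eng in DNFB ears is filled under all 5, between 0.36 and 0.73, and all genes but Bmp6 and Smad7 change sign between scalings in at least 1 ear type.

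Endothelial and lymphatic markers also differed by genotype on centred values. Of 13 pan-endothelial markers, 9 were higher in NICD1-EC-OE mice in DNFB ears and 4 in vehicle ears, and none was lower. Pecam1 differed by 0.28 in DNFB ears and 0.31 in vehicle ears, but by -0.020 and 0.00081 as deposited. Of 5 lymphatic endothelial markers tested, 3 were higher in NICD1-EC-OE mice in DNFB ears and 5 in vehicle ears, with the lymphatic hyaluronan receptor Lyve1 at 1.31 and 1.66 (1.01 and 1.35 as deposited). The summed lymphatic signal was 2500 to 4312 in NICD1-EC-OE mice and 1718 to 2583 in control mice in DNFB ears, and 1650 to 3742 in NICD1-EC-OE mice and 744 to 1326 in control mice in vehicle ears. Their part in the genotype differences of the 10 genes was not tested.

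The rest of the pathway was read from lists of 59 other ligands, receptors, SMADs, modulators and targets, of which 50 were tested. Under DNFB, 11 rose and 13 fell in NICD1-EC-OE mice and 15 rose and 15 fell in control mice, and 26 and 20 did not pass. Their median differences were -0.035 and 0.0087, near those of all probe sets.

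Among 10 ligands tested, 4 rose and 2 fell in NICD1-EC-OE mice and 4 rose and 1 fell in control mice. Bmp2, the nearest relative of Bmp4, averaged 8.02 ± 0.14 in DNFB ears and 6.33 ± 0.24 in vehicle ears of NICD1-EC-OE mice, and 7.82 ± 0.32 in DNFB ears and 6.14 ± 0.20 in vehicle ears of control mice, a rise of 1.70 ± 0.17 and 1.67 ± 0.14 (adjusted p = 1.96e-07 and 6.96e-09). The activin subunits rose too, Inhbb by 2.05 in NICD1-EC-OE mice and 2.26 in control mice and Inhba by 0.90 and 1.70. The Inhba sizes are measured against low values, since 4 of 4 vehicle arrays of NICD1-EC-OE mice and 5 of 6 of control mice lay under their arrays' medians. For Inhbb, 0 of 4 vehicle arrays of NICD1-EC-OE mice and 2 of 6 of control mice did. Bmp3, which opposes other BMPs, was called lower in NICD1-EC-OE mice, but its 4 DNFB arrays there, at 2.63 to 2.78, all lay under their arrays' medians, so no size is given. Tgfb3 fell by 0.78 in control mice (adjusted p = 0.0068).

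Among 8 receptors tested, 1 rose and 4 fell in each genotype. Tgfbr3, the co-receptor betaglycan related to endoglin, averaged 8.13 ± 0.18 in DNFB ears and 9.64 ± 0.15 in vehicle ears of NICD1-EC-OE mice, and 8.78 ± 0.23 in DNFB ears and 10.03 ± 0.15 in vehicle ears of control mice. It fell by 1.51 and 1.26, and Tgfbr2, the TGF-beta type II receptor, by 1.11 and 0.68, while Tgfbr1, the TGF-beta type I receptor, differed by 0.051 and 0.053 (adjusted p = 0.875 and 0.816). Acvr2b, a type II receptor for activins and BMPs, fell by 1.13 and 0.87, and Acvr1b, the activin type I receptor, rose by 0.90 and 0.72. The Acvr2b sizes rest on low DNFB values. In NICD1-EC-OE mice 1 of 4 DNFB arrays, and in control mice 4 of 6, lay under their arrays' medians. Of 5 SMADs tested, Smad1, the main BMP effector, fell by 1.00 in NICD1-EC-OE mice and 0.71 in control mice (adjusted p = 7.9e-06 and 2.66e-05), and Smad5 fell by 0.34 in control mice.

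Among 21 modulators tested, 4 rose and 5 fell in NICD1-EC-OE mice and 8 rose and 5 fell in control mice. Fst, the secreted activin and BMP antagonist follistatin, averaged 6.41 ± 0.45 in DNFB ears and 4.50 ± 0.34 in vehicle ears of NICD1-EC-OE mice, and 6.87 ± 0.56 in DNFB ears and 4.27 ± 0.51 in vehicle ears of control mice, a rise of 1.91 and 2.61. For Fst, 1 of 6 control vehicle arrays, at 3.26, lay under its array's median. The SMAD co-repressor Skil, itself a TGF-beta target, rose by 1.02 in NICD1-EC-OE mice and 0.79 in control mice, and its relative Ski fell by 0.58 and 0.70. Pmepa1, a TGF-beta-induced inhibitor, rose by 0.72 in NICD1-EC-OE mice and 0.57 in control mice. Ltbp1, which holds latent TGF-beta in the matrix, fell by 0.77 in NICD1-EC-OE mice (adjusted p = 0.0125; -0.60 and adjusted p = 0.0574 without NICD1-EC-OE DNFB replicate 3), and Bmper, a BMP-binding protein of endothelium, rose by 0.70 in control mice (adjusted p = 0.00229). For Bmper too, 1 of 6 control vehicle arrays lay under its array's median.

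Among 6 other targets tested, 2 rose and 1 fell in NICD1-EC-OE mice and 2 rose and 3 fell in control mice. Ccn2 and Ccn1, matricellular genes that TGF-beta and mechanical signals induce, rose in both, Ccn2 by 1.28 in NICD1-EC-OE mice and 1.29 in control mice and Ccn1 by 0.74 and 0.86. Tmem100 and Atoh8, endothelial targets of BMP9 and ALK1, fell in control mice by 1.24 (adjusted p = 8.82e-05) and 1.07 (adjusted p = 4.94e-05). For each, 1 of 6 control DNFB arrays lay under its array's median, at 3.01 for Tmem100 and 3.85 for Atoh8. Tmem100 averaged 4.71 ± 0.25 in DNFB ears and 5.17 ± 0.14 in vehicle ears of NICD1-EC-OE mice, and 4.07 ± 0.63 in DNFB ears and 5.31 ± 0.29 in vehicle ears of control mice. Their differences between the genotypes' responses, 0.79 ± 0.35 and 0.76 ± 0.28, did not pass (adjusted p = 0.426 and 0.339). Id4, the remaining Id gene, fell by 0.97 in NICD1-EC-OE mice and 0.76 in control mice (adjusted p = 3.51e-04 and 3.46e-04). Its DNFB values were low, with 2 of 4 arrays of NICD1-EC-OE mice and 1 of 6 of control mice under their arrays' medians.

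**Figure D4:**
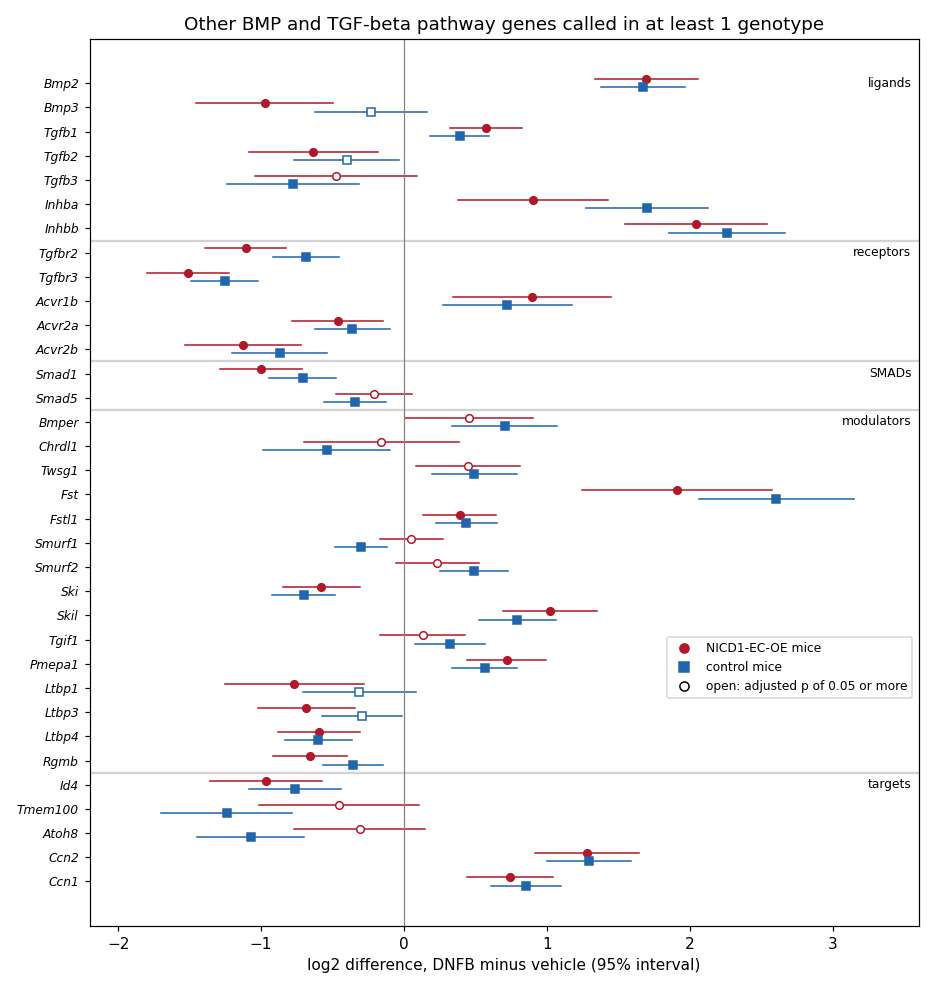
Log2 difference of DNFB minus vehicle ears (x axis) with its 95% interval for the 34 other pathway genes called in at least 1 genotype, grouped by role from ligands at the top to targets at the bottom, in NICD1-EC-OE mice (circles) and control mice (squares). Filled symbols have an adjusted p under 0.05. Bmp2, Inhbb and Fst lie farthest to the right and Tgfbr3 farthest to the left in NICD1-EC-OE mice.

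By genotype, 8 of the 50 pathway genes were higher and 8 lower in NICD1-EC-OE mice in DNFB ears, and 7 were higher and 4 lower in vehicle ears, on centred values. As deposited, 2 were higher and 21 lower in DNFB ears, and 2 were higher and 16 lower in vehicle ears. Of the 13 named by rule in DNFB ears, 9 were called under all 5 scalings, and of 11 in vehicle ears, 6. In DNFB ears Tmem100 and Atoh8 among these were higher, and Bmpr1a, Bmp3, Chrdl1, Acvr2a, Smad3, Smurf2 and Skil lower. There 4 of 4 NICD1-EC-OE arrays of Bmp3 and 3 of 4 of Chrdl1 lay under their arrays' medians. In vehicle ears Tgfbi and Tgfbr2 were higher, and Chrdl1, Skil, Smad3 and Pmepa1 lower. The Pmepa1 call was lost in 6 of 20 fits that left out 1 array, with an adjusted p of up to 0.117. In DNFB ears Tmem100 was higher by 0.93 ± 0.24 (adjusted p = 0.00789; 0.64 as deposited) and Atoh8 by 0.86 ± 0.21 (adjusted p = 0.00475; 0.56 as deposited), both under all 5 scalings. For each, 1 of 6 control DNFB arrays lay under its array's median. Bmpr1a, a BMP type I receptor, differed by -1.12 ± 0.20 (adjusted p = 5.13e-04), again under all 5. In vehicle ears Tgfbi, a TGF-beta-induced matrix gene, was higher by 1.12 ± 0.20 (adjusted p = 7.32e-04) and Tgfbr2 by 0.70 ± 0.13 (adjusted p = 7.42e-04), and the BMP antagonist Chrdl1 differed by -1.28 ± 0.24 (adjusted p = 0.0012), each under all 5, with 3 of 4 NICD1-EC-OE vehicle arrays of Chrdl1 under their arrays' medians. Smad3, a TGF-beta effector, and Skil lay lower in NICD1-EC-OE mice in both ear types, Smad3 at -0.45 and -0.47 and Skil at -0.53 and -0.75. The Smad3 calls were lost in DNFB ears without NICD1-EC-OE DNFB replicate 3 (adjusted p = 0.0528) and in vehicle ears without NICD1-EC-OE vehicle replicate 1 (adjusted p = 0.0731) or 3 (adjusted p = 0.0504).

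Correlations across the 20 centred arrays, which hold the DNFB and genotype groups, are given as a description. Bmpr2 and Bmp6 ran together (Pearson r = 0.90, and 0.75 within groups), as did Id1 and Id3 (0.81, and 0.57 within groups). Bmp4 ran against Bmpr2 (-0.85, and -0.66 within groups) and against Id2 (-0.85, and -0.61 within groups). Eng and Smad7 followed each other over all arrays (0.79) and less within groups (0.30). Of all genes tested, those most like each gene over the 20 arrays were Pigt for Eng (0.94), Jagn1 for Acvrl1 (0.89), Utrn for Bmpr2 (0.97), Zdhhc21 for Bmp4 (0.94), Cdc42bpa for Bmp6 (0.95), Nt5c3 for Smad6 (0.85), Apold1 for Smad7 (0.90), Nfe2l1 for Id1 (0.91), Ubr2 for Id2 (0.87) and Arhgef25 for Id3 (0.89). The endothelial transcription factor Sox18 was the third most like Id3 (0.88, and 0.48 within groups). Within groups, Utrn kept 0.91 with Bmpr2 and Cdc42bpa 0.88 with Bmp6, while Krtcap2, the second most like Eng at 0.92, had 0.075.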

How the data were processed

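The deposited values are log2 signals that the authors made with RMA in Affymetrix Expression Console, per the submitters' processing notes; versions and the annotation used are not given in the sources used here. RNA from sorted ear endothelial cells, 1 ng per array per the labels' protocols, was amplified before hybridisation, which can compress or distort differences of low genes. The table held 41345 probe sets, of which 23521 had 1 symbol in the platform annotation, 1814 several and 16010 none. Those with 1 symbol and a value above the array's 50th percentile on at least 4 arrays were tested, 14886 in all. No per-sample column was left unused (0). Groups came from the titles and genotype labels.

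A linear model with the 4 groups was fitted with limma 3.58.1 in R 4.3.3, with Benjamini-Hochberg adjustment over all probe sets tested. DNFB differences and their difference between genotypes used the values as deposited, and genotype differences the values minus each array's median over the tested probe sets. The code was tested on simulated data, in which all arrays shared 1 level and 200 of 14886 probe sets were changed. Of simulated log2 differences of 0.5, 20% to 38% passed the threshold in the DNFB and genotype comparisons. The real DNFB and genotype comparisons called 18.7% to 47.2% of probe sets, so these shares need not hold for them. For the difference of the DNFB effects, 6% of simulated differences of 0.5 and 48% of those of 1 passed. False calls made up 2.2% to 10.9% of simulated calls in the DNFB and genotype comparisons, and 5.3% for the difference of effects. Alternatives were other scalings, filters, variance models, blocks, the compared groups alone and each array left out. Motif searches and figures used Python 3.11.15 and matplotlib 3.10.9. The number of arrays limits the precision.

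The 10 genes and the gene lists were chosen with earlier results of these data known. All 10 genes were named, with up to 4 called genes per pathway list and comparison, up to 2 markers per marker list with Pecam1 and Ptprc, and the 3 likest genes of each; Xist, Eif2s3y and Notch1 were added after their values were seen. Of the pathway lists, 7 genes with a probe set (Bmp10, Gdf2, Bmpr1b, Acvr1c, Smad9, Grem1 and Chrd) did not pass the filter.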

Additional observations from a re-analysis of the deposited data

Results flagged for a closer look

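In 40 groups of 4 or 6 arrays, 1 group for each of the 10 genes in each condition, 3 arrays lay farther from their group than Dixon's critical value allows, where chance gives about 2. Id3 was at 9.5399 in NICD1-EC-OE vehicle replicate 1, below the other 3 arrays of its group, which lay between 9.86 and 9.91. Id3 was also low in control vehicle replicate 2, at 9.6051, where the other arrays lay at 9.99 or more. Smad7 was low in control DNFB replicate 5, at 6.9615.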

How the results depend on the processing

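The DNFB calls of Eng, Bmpr2, Bmp4, Bmp6, Smad6 and Id2 in NICD1-EC-OE mice, and of Bmpr2, Bmp4, Bmp6, Id1 and Id3 in control mice, held under every alternative run. Genotype results turned on the scaling. In DNFB ears the deposited values called 1 of the 10 genes and centring on all probe sets called 8, and the signs turned for Acvrl1 (-0.068), Bmp4 (-0.10), Id1 (-0.089) and Id2 (-0.29) as deposited, for Id2 after quantile normalization (-0.028) and with array weights (-0.021), and for Bmpr2 (-0.011) and Id2 (-0.051) after cyclic loess. In vehicle ears quantile normalization and cyclic loess each called 1 gene. There the signs turned as deposited for Eng (-0.11), Acvrl1 (-0.082), Bmpr2 (-0.20), Id1 (-0.25), Id2 (-0.022) and Id3 (-0.19), after quantile normalization for Eng (-0.048), Bmpr2 (-0.15), Id1 (-0.10) and Id3 (-0.14), and after cyclic loess for Eng (-0.028), Bmpr2 (-0.14), Smad6 (0.022), Id1 (-0.065) and Id3 (-0.094). The cause was not tested. Over all probe sets, no filter gave 7110 calls in DNFB ears (5243 higher) and 5677 in vehicle ears (4345 higher), where more probe sets were tested, and the deposited values gave 5343 in vehicle ears, with 18 pathway genes. For the difference of the DNFB effects, 2 probe sets were called, against 0 with centred arrays or when unnamed probe sets were also tested, 1 after quantile normalization, cyclic loess or no filter, 17 with array weights, 20 with a random replicate block and 27 with trended and robust variances, which also called 1 of the 10 genes, Eng. Its Acvrl1 value turned to -0.0061 after quantile normalization and -0.038 after cyclic loess. With 1 array left out, 0 to 2 of the 10 genes were called in vehicle ears (0 without NICD1-EC-OE vehicle replicate 2), 7 to 12 pathway genes there, and 0 to 29 probe sets for the difference of the DNFB effects (29 without control DNFB replicate 6). Over the same fits Smad6 in control mice ran from -0.0024 to 0.33, Id2 in DNFB ears from -0.066 to 0.071, Smad6 in vehicle ears from -0.24 to 0.064, Id1 in vehicle ears from -0.012 to 0.11 and the Acvrl1 difference of effects from -0.044 to 0.047. A fixed replicate block called 6 of the 10 genes under DNFB in each genotype and 3 probe sets for the difference of effects; a random replicate block called 7 in each genotype, and 4 and 2 by genotype. The labels give no source for a pairing. Deviations of same-numbered DNFB and vehicle arrays correlated at 0.042 to 0.27 over 10 pairs, with 5 over 0.1 and the own number highest in 7 of 10, a hint from the data and not from the design. The fixed replicate block lost Acvrl1 in control mice (adjusted p = 0.0568), and the random replicate block added Id1 in NICD1-EC-OE mice (adjusted p = 0.0434). A second probe set with only its symbol was not run, since none of the 10 genes has one above the filter.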

Other observations

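Lymphatic endothelial markers, which the sort for CD31 does not remove, did not move one way under DNFB: of 5 tested, 1 rose and 2 fell in NICD1-EC-OE mice, and 1 rose and 1 fell in control mice. Lyve1 averaged 10.57 ± 0.35 in DNFB ears and 10.39 ± 0.47 in vehicle ears of NICD1-EC-OE mice, and 9.56 ± 0.34 in DNFB ears and 9.04 ± 0.46 in vehicle ears of control mice. Platelet markers were lower in NICD1-EC-OE mice for 2 of 5 in DNFB ears and 1 of 5 in vehicle ears on centred values.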
